A study of Homo sapiens with 12 samples.

Results

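The 59 genes described here encode nuclear subunits of the respiratory chain, the set of protein complexes in the inner mitochondrial membrane. They were chosen by gene symbol and not by their values, although earlier results of these data were known. Of them, 36 belong to complex I (NDUF genes), 4 to complex II (SDH genes), 9 to complex III (UQCR genes and CYC1), 8 to complex IV (COX genes) and 2 to ATP synthase, which is complex V (ATP5A1 and ATP5B). All 59 were found among the 56266 genes listed, and all 59 were among the 21543 genes tested, those with at least 1 TPM in at least 2 libraries. TPM, transcripts per 1e+06 transcripts, is a share corrected for gene length. These symbols stood on 63 rows, and the 4 additional rows, which are readthrough transcripts that run into a neighbouring gene, were set aside. NDUFA4 is filed here under complex I by its name, although it is also described as a complex IV subunit.

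Complexes I and II pass electrons from NADH and succinate to ubiquinone, complex III passes them on to cytochrome c, and complex IV hands them to oxygen, while complexes I, III and IV pump protons. ATP synthase uses the returning protons to make ATP. Most subunits are encoded in the nucleus, and the remaining ones, at the core of every complex but II, are encoded in the mitochondrial genome, so that 2 genomes supply each of those complexes.

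RNA-Seq was analysed in 10 libraries of H1 human embryonic stem cells (hESCs) and their progeny, 2 for each of 5 groups. GATA2-/- hESCs were undifferentiated cells, hemogenic endothelium (HE) was sorted as CD34+CD31+CD43- cells on day 8 and hematopoietic progenitor cells (HPCs) as CD34+CD43+ cells on day 9 of co-culture with OP9, a mouse stromal line, and HEs and HPCs were each taken from WT and GATA2-/- cultures. GATA2-/- cells came from 1 expanded clone in which a neomycin cassette interrupts exon 3 of both GATA2 alleles, so a clone and its genotype cannot be told apart. WT hESCs were not analysed here, and no source says whether the libraries of a group came from separate cultures, so p-values measure only the spread between these libraries.

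GATA2, the targeted transcription factor, was at 2.05 and 5.54 TPM in GATA2-/- hESCs, 107 and 78.0 in WT HEs, 111 and 94.1 in GATA2-/- HEs, 290.1 and 204 in WT HPCs and 112 and 83.8 in GATA2-/- HPCs. RNA from an interrupted locus can still be counted, so this level does not check the labels. Summed TPM of the pluripotency markers (such as POU5F1) was 5522 to 6278 in hESCs and 225 to 377 elsewhere, that of the endothelial markers (such as CDH5) 3861 to 4698 in HEs and 993 to 1295 in HPCs, and that of the erythroid markers 5729 to 17060 in HPCs against at most 243 elsewhere. The sums thus separated the stages as labelled in all 10 libraries. In sorted bulk cells, fewer cells of a type and less RNA per cell cannot be told apart. Read depth is unknown, since TPM keeps none.

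The members were abundant transcripts, with summed TPM of 9231 to 14425, or 0.925% to 1.44% of each library. Together they reached 14355 and 14425 summed TPM in GATA2-/- hESCs, 10319 and 11001 in WT HEs, 9231 and 10828 in GATA2-/- HEs, 11638 and 12867 in WT HPCs and 10663 and 9988 in GATA2-/- HPCs. Both hESC libraries were above the other 8, WT HPCs came next, and WT HEs, GATA2-/- HEs and GATA2-/- HPCs overlapped. From hESCs to GATA2-/- HEs the change was -18.9% for complex I, -35.6% for complex II, -37.4% for complex III, -40.8% for complex IV and -31.2% for complex V, and in each case both HE libraries lay below both hESC libraries. From hESCs to GATA2-/- HPCs it was -24.7%, -36.2%, -26.3%, -38.9% and -16.5% in the same order, again without overlap. The complex V values cover only ATP5A1 and ATP5B, since other ATP synthase genes, such as ATP5G1 and ATP5G2, are outside the member list.

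By summed TPM, complex IV had the largest relative difference between stages in the GATA2-/- line. Its 8 members summed to 4151 ± 179 TPM (mean ± SD, n = 2) in hESCs, 2474 ± 434 in GATA2-/- HEs and 2534 ± 11.4 in GATA2-/- HPCs, against 2616 ± 274 in WT HEs and 3187 ± 498 in WT HPCs. Much of that difference lay in COX7C, with means of 1685 TPM in hESCs, 586 in GATA2-/- HEs and 879 in GATA2-/- HPCs. The median log2 fold change of members ranked the complexes otherwise. From hESCs to GATA2-/- HEs it was -0.69 (II), -0.71 (III) and -0.44 (IV), and to GATA2-/- HPCs -0.77, -0.50 and -0.54. Complex I, the entry point for NADH electrons, summed to 5331 ± 36.6 TPM in hESCs, 4545 ± 308 in WT HEs, 4343 ± 543 in GATA2-/- HEs, 4697 ± 320.4 in WT HPCs and 4014 ± 166 in GATA2-/- HPCs.

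The first comparison asks how the members differ between undifferentiated cells and their sorted progeny, and it can be made here only within the GATA2-/- line. Between GATA2-/- HEs and hESCs, 18 members fell and 2 rose (limma, adjusted p under 0.05), and 39 did not pass the test. Of all genes tested, 16.1% fell and 13.9% rose in this comparison, and of the 3520 genes with a mean TPM at least that of the lowest member (44.2) 20.5% fell and 26.6% rose. The median log2 fold change was -0.33 over the members and -0.02 over all genes tested, and the member median was -0.17 without the first GATA2-/- HE library and -0.49 without the second. Between GATA2-/- HPCs and hESCs, 18 members fell and 1 rose, while 16.4% of all genes tested fell and 14.2% rose, and the medians were -0.39 and 0.00. Of the 3520 abundant genes 23.1% fell and 23.2% rose there. Both libraries of GATA2-/- HEs were below both hESC libraries for 34 members and above for 9, against 33.7% and 29.4% of all genes tested, and 37.5% and 39.5% of the abundant ones. For GATA2-/- HPCs these counts were 39 and 4, against 32.1% and 30.2% of all genes, and 40.6% and 35.9% of the abundant ones. The 2 comparisons share the hESC libraries, so their counts are not independent.

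Complex III led by share. Of its 9 members, 6 fell from hESCs to GATA2-/- HEs (CYC1, UQCR10, UQCRC1, UQCRFS1, UQCRH and UQCRQ) and 5 fell to GATA2-/- HPCs, with UQCRFS1 not called there. UQCRH, the hinge protein that assists the handover to cytochrome c (ENSG00000173660, chr1:46769370-46782448 on GRCh37), was at 862 and 715 TPM in GATA2-/- hESCs, 329 and 364 in WT HEs and 349.9 and 404 in GATA2-/- HEs. UQCRH levels in HPCs were 473 and 571 TPM (WT) and 519.6 and 454 TPM (GATA2-/-). Its hESC levels were above all other libraries, and its HPC levels were above all HE levels. The change was -1.06 ± 0.16 (SE) on the log2 scale (limma, adjusted p = 0.00136) to GATA2-/- HEs and -0.69 ± 0.16 (SE) on the log2 scale (limma, adjusted p = 0.0118) to GATA2-/- HPCs. UQCRFS1, the Rieske iron-sulfur protein of complex III (ENSG00000169021, chr19:29696227-29704058), was at 134 and 132 TPM in GATA2-/- hESCs, 79.4 and 74.5 in WT HEs and 68.6 and 65.0 in GATA2-/- HEs. UQCRFS1 levels in HPCs were 87.0 and 101 TPM (WT) and 105 and 93.2 TPM (GATA2-/-). Here too the order was hESCs, HPCs, HEs without overlap, with -0.98 ± 0.14 (SE) on the log2 scale (limma, adjusted p = 0.00109) from hESCs to GATA2-/- HEs. A pseudogene, UQCRFS1P1, was listed at a mean of 10.9% of the UQCRFS1 level, so short reads could be split between them. UQCRC2, a core subunit, ranged only from 170 to 209 TPM over the 10 libraries, while its partner UQCRC1 was at 392 and 303 TPM in hESCs and 179 to 238 TPM in the other 8 libraries. CYC1, which carries the heme of cytochrome c1, ranged from 112 to 192 TPM, UQCRB from 199 to 464, UQCRQ from 69.7 to 162, UQCR10 from 68.8 to 159 and UQCR11 from 61.5 to 126 TPM. The readthrough row of UQCR11 was at 43.6 and 29.6 TPM in hESCs and 5.23 and 14.1 TPM in GATA2-/- HPCs, and with both rows summed its difference between these groups was -0.15 on the log2 scale in place of 0.20.

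In complex II, which oxidizes succinate, the iron-sulfur subunit SDHB and the membrane anchor SDHD fell in both comparisons, and the flavoprotein SDHA and the anchor SDHC were not called. SDHD (ENSG00000204370, chr11:111957548-111990739), the member of complex II with the lowest mean, was at 128 and 100.5 TPM in GATA2-/- hESCs, 65.2 and 55.4 in WT HEs and 48.6 and 51.9 in GATA2-/- HEs. SDHD levels in HPCs were 54.4 and 74.0 TPM (WT) and 57.5 and 51.9 TPM (GATA2-/-). Both hESC libraries were above the other 8, and the 8 overlapped. The change was -1.16 ± 0.20 (SE) on the log2 scale (limma, adjusted p = 0.00270) to GATA2-/- HEs and -1.04 ± 0.20 (SE) on the log2 scale (limma, adjusted p = 0.00461) to GATA2-/- HPCs. SDHB was at 145 and 103 TPM in GATA2-/- hESCs, 56.2 and 77.2 in WT HEs, 79.5 and 46.3 in GATA2-/- HEs, 63.4 and 91.4 in WT HPCs and 70.0 and 48.5 in GATA2-/- HPCs, with a wide spread between libraries in HEs and -0.99 ± 0.33 (SE) on the log2 scale (limma, adjusted p = 0.0490) to GATA2-/- HEs and -1.05 ± 0.33 (SE) on the log2 scale (limma, adjusted p = 0.0391) to GATA2-/- HPCs. SDHC, the highest of the 4, was at 158 and 171 TPM in GATA2-/- hESCs, 144 and 156 in WT HEs, 102 and 155 in GATA2-/- HEs, 151 and 124 in WT HPCs and 107 and 127 in GATA2-/- HPCs, and its hESC levels were above those of the other libraries by little. SDHA ranged from 63.7 to 91.2 TPM without order, and its pseudogenes SDHAP1 and SDHAP3 were listed at 27.7% and 17.0% of its mean, so its level is uncertain.

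Among complex IV genes, COX6A1, COX6B1 and COX7C fell from hESCs to GATA2-/- HEs, and COX6A1, COX6C, COX7C and COX8A fell to GATA2-/- HPCs. All of them encode small structural subunits around the mitochondrially encoded core. COX7C (ENSG00000127184, chr5:85913745-85916779), the most abundant member of the 59, was at 1481 and 1890.3 TPM in GATA2-/- hESCs, 626 and 718 in WT HEs and 489 and 684 in GATA2-/- HEs. COX7C levels in HPCs were 844 and 1205 TPM (WT) and 882 and 876 TPM (GATA2-/-). The hESC levels were the highest, the HE levels the lowest, and no HPC level reached either. It had the largest fall of any member, -1.53 ± 0.22 (SE) on the log2 scale (limma, adjusted p = 0.00105) to GATA2-/- HEs, and changed by -0.93 ± 0.22 (SE) on the log2 scale (limma, adjusted p = 0.0132) to GATA2-/- HPCs. COX6A1 (ENSG00000111775, chr12:120875893-120878540) was at 481 and 410.4 TPM in GATA2-/- hESCs, 208 and 291 in WT HEs and 197 and 243 in GATA2-/- HEs. COX6A1 levels in HPCs were 272 and 290.0 TPM (WT) and 193 and 183 TPM (GATA2-/-). Its hESC levels were above the rest, with -1.02 ± 0.19 (SE) on the log2 scale (limma, adjusted p = 0.00364) to GATA2-/- HEs and -1.24 ± 0.19 (SE) on the log2 scale (limma, adjusted p = 0.00132) to GATA2-/- HPCs. COX5B, the lowest of complex IV, was at 198 and 212 TPM in GATA2-/- hESCs, 141 and 184 in WT HEs, 128 and 184 in GATA2-/- HEs, 180.5 and 216 in WT HPCs and 147 and 171 in GATA2-/- HPCs, and was not called in either comparison.

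Complex I had calls in both directions. Of its 36 members, 6 fell from hESCs to GATA2-/- HEs (NDUFA4, NDUFA13, NDUFS1, NDUFS5, NDUFS6 and NDUFS8) and 2 rose (NDUFA9 and NDUFC2). To GATA2-/- HPCs, 7 fell (NDUFA7, NDUFA11, NDUFA13, NDUFB7, NDUFS5, NDUFS6 and NDUFS8) and NDUFV3 rose. The 16.7% and 19.4% that fell were near the 16.1% and 16.4% of all genes tested, and the abundant genes had 20.5% and 23.1%. The 5.56% and 2.78% that rose were below the 13.9% and 14.2% of all genes. NDUFS5 (ENSG00000168653, chr1:39491990-39500308), an accessory subunit on the intermembrane side, was at 658 and 562 TPM in GATA2-/- hESCs, 272 and 262 in WT HEs and 244 and 319 in GATA2-/- HEs. NDUFS5 levels in HPCs were 257 and 291 TPM (WT) and 308 and 213 TPM (GATA2-/-). Its hESC levels were above those of the other 8 libraries, which overlapped, and the change was -1.12 ± 0.21 (SE) on the log2 scale (limma, adjusted p = 0.00359) to GATA2-/- HEs and -1.24 ± 0.21 (SE) on the log2 scale (limma, adjusted p = 0.00204) to GATA2-/- HPCs. NDUFS6 (ENSG00000145494, chr5:1801521-1816162), an accessory subunit that binds zinc, was at 173 and 150.2 TPM in GATA2-/- hESCs, 100.4 and 82.5 in WT HEs and 70.6 and 79.8 in GATA2-/- HEs. NDUFS6 levels in HPCs were 78.5 and 82.3 TPM (WT) and 72.2 and 61.2 TPM (GATA2-/-). Again both hESC libraries were the highest, with -1.09 ± 0.17 (SE) on the log2 scale (limma, adjusted p = 0.00137) to GATA2-/- HEs and -1.26 ± 0.17 (SE) on the log2 scale (limma, adjusted p = 6.20e-04) to GATA2-/- HPCs.

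NDUFA9 (ENSG00000139180, chr12:4758261-4803483), an accessory subunit near the junction of the arms of complex I, went the other way. It was at 107 and 88.0 TPM in GATA2-/- hESCs, 146 and 148 in WT HEs and 143 and 159.9 in GATA2-/- HEs. NDUFA9 levels in HPCs were 129.8 and 100.3 TPM (WT) and 90.7 and 82.3 TPM (GATA2-/-). All 4 HE libraries were above the 6 others, and hESC and HPC levels overlapped. The change from hESCs to GATA2-/- HEs was 0.64 ± 0.17 (SE) on the log2 scale (limma, adjusted p = 0.0222), and to GATA2-/- HPCs it was -0.17 ± 0.17 (SE) on the log2 scale (limma, adjusted p = 0.514), with a 95% interval of -0.56 to 0.23. NDUFC2, a membrane arm subunit, was at 134 and 146 TPM in GATA2-/- hESCs, 189 and 202 in WT HEs, 200.1 and 188 in GATA2-/- HEs, 177 and 152 in WT HPCs and 127 and 150.0 in GATA2-/- HPCs, again with all 4 HE libraries above the 6 others, and 0.47 ± 0.15 (SE) on the log2 scale (limma, adjusted p = 0.0389) to GATA2-/- HEs. Within complex I, NDUFA4 had the highest mean and was at 520.4 and 526 TPM in GATA2-/- hESCs, 356 and 386 in WT HEs, 262 and 376 in GATA2-/- HEs, 425 and 489 in WT HPCs and 440.1 and 341 in GATA2-/- HPCs, and NDUFS1, the largest core subunit, had the lowest and was at 61.5 and 59.6 TPM in GATA2-/- hESCs, 41.2 and 34.3 in WT HEs, 42.8 and 27.4 in GATA2-/- HEs, 40.2 and 40.2 in WT HPCs and 57.5 and 37.6 in GATA2-/- HPCs.

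**Figure D1:**
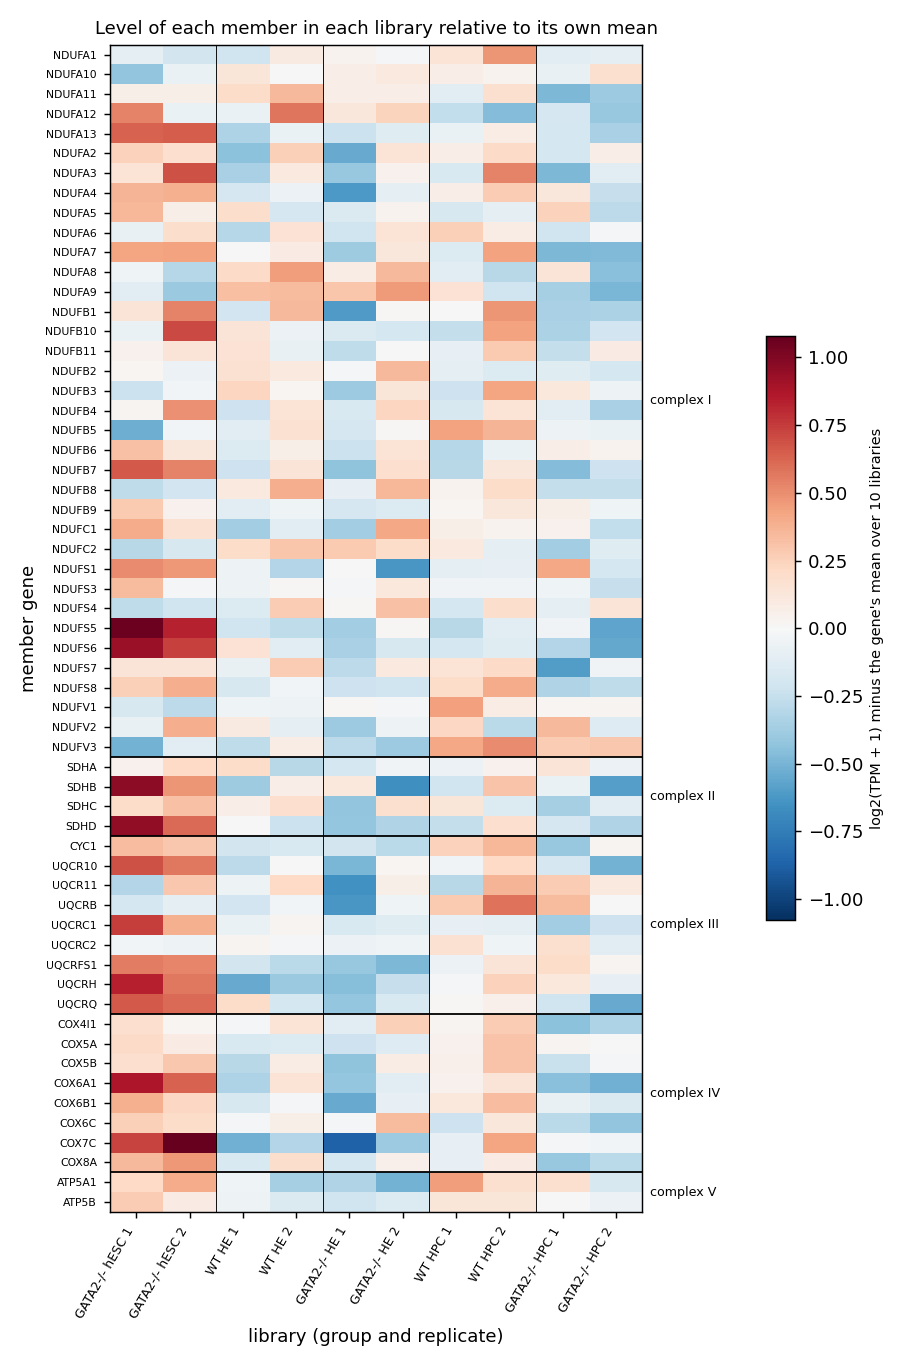
Each row is a member gene, grouped by complex, and each column a library. Colour gives log2(TPM + 1) minus the gene's own mean over the 10 libraries, with red above and blue below it, and red is concentrated in the 2 hESC columns for genes such as COX7C, NDUFS5, NDUFS6, SDHD and UQCRH, while NDUFA9 and NDUFC2 are red in the 4 HE columns.

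Both hESC libraries were above all 8 others for 17 of the 59 members, or 28.8%, compared with 20.3% of all genes tested. By complex these members were 6 of 36 in complex I, 3 of 4 in complex II, 5 of 9 in complex III, 3 of 8 in complex IV and 0 of 2 in complex V. This share was not counted over the abundant genes. Ranked by group means of the GATA2-/- line, 24 members were in the order hESC, HE, HPC, 19 in the order hESC, HPC, HE, and 16 in one of the other 4 orders. The orders were counted for the members only, so no share of all genes stands beside them. In ATP synthase, ATP5A1 and ATP5B, the alpha and beta subunits of the catalytic head, differed in what passed the test. ATP5A1 (ENSG00000152234, chr18:43660214-43684300), the more abundant, was at 1019 and 1157 TPM in GATA2-/- hESCs, 851 and 685 in WT HEs, 701 and 618 in GATA2-/- HEs, 1203 and 992 in WT HPCs and 988 and 779 in GATA2-/- HPCs, and fell from hESCs to GATA2-/- HEs by 0.72 on the log2 scale (limma, adjusted p = 0.0158). ATP5B was at 1069.6 and 945 TPM in GATA2-/- hESCs, 853 and 796 in WT HEs, 765 and 799 in GATA2-/- HEs, 969.8 and 973 in WT HPCs and 889.6 and 850.0 in GATA2-/- HPCs, and its change of -0.36 ± 0.12 (SE) on the log2 scale (limma, adjusted p = 0.0527) did not pass the test.

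The second comparison follows the step from HE to HPC. In WT cells none of the 59 members was called (limma, 10 at an unadjusted p under 0.05, of which 8 were higher in HPCs), although 3.32% of all genes tested rose and 6.59% fell. An unadjusted p under 0.05 (limma) was reached there by 4834 of the 21543 genes tested, of which 1880 were higher in HPCs. In GATA2-/- cells UQCRFS1 rose and NDUFA9 and NDUFA11 fell, against 5.5% of genes higher and 7.24% lower, and 8.1% and 15.2% of the abundant genes. Every WT HPC library was above both WT HE libraries for 18 members and below for 8, beside 20.2% and 26.1% of all genes, and in GATA2-/- cells the counts were 12 and 16, beside 26.6% and 24.4%. With the genotypes averaged, 6 members rose and 3 fell, against 8.52% and 11.9% of all genes and 12.6% and 20.8% of the abundant ones. The share of members that rose was near that of all genes, and the share that fell was below it. Scaling changed the split, from 6 higher and 3 lower to 12 and 1 after quantile normalization and to 8 and 1 after TPM was rescaled without mitochondrial genome and hemoglobin genes, and for GATA2-/- cells alone from 1 and 2 to 3 and 1 or 2 and 1. The median over members was 0.06 as deposited, 0.18 after quantile normalization and 0.17 after rescaling, and over all genes it was 0.01, 0.04 and 0.09. Its sign was not stable, since the member median was -0.02 without the first GATA2-/- HE library and -0.04 without the second WT HPC library.

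The 6 that rose were NDUFV3, UQCRB, UQCRFS1, UQCRH, COX7C and ATP5A1, and the 3 that fell were NDUFA9, NDUFA11 and NDUFC2, all accessory subunits of complex I. NDUFV3 (ENSG00000160194, chr21:44299754-44333414), a small subunit of the NADH-oxidizing module, was at 35.7 and 47.1 TPM in GATA2-/- hESCs, 42.3 and 54.3 in WT HEs and 41.9 and 38.8 in GATA2-/- HEs. NDUFV3 levels in HPCs were 68.9 and 73.5 TPM (WT) and 62.1 and 63.0 TPM (GATA2-/-). All 4 HPC libraries were above the 6 others, and the rise from HE was 0.59 ± 0.14 (SE) on the log2 scale (limma, adjusted p = 0.0146). UQCRB, a small subunit that helps to form the ubiquinone site, was at 270.0 and 289 TPM in GATA2-/- hESCs, 268 and 302 in WT HEs and 199 and 299 in GATA2-/- HEs. UQCRB levels in HPCs were 375 and 464 TPM (WT) and 391 and 307 TPM (GATA2-/-). Its 4 HPC libraries were also the highest, with 0.53 ± 0.15 (SE) on the log2 scale (limma, adjusted p = 0.0403). COX7C rose by 0.60 ± 0.16 (SE) on the log2 scale (limma, adjusted p = 0.0278), UQCRH by 0.48 ± 0.11 (SE) on the log2 scale (limma, adjusted p = 0.0184), UQCRFS1 by 0.42 ± 0.10 (SE) on the log2 scale (limma, adjusted p = 0.0195) and ATP5A1 by 0.46 ± 0.13 (SE) on the log2 scale (limma, adjusted p = 0.0321), and of these 4 only ATP5A1 had HPC and HE levels that overlapped. NDUFA9 fell by 0.58 ± 0.12 (SE; limma, adjusted p = 0.00969), and it was called under each of 17 alternative settings. NDUFA11 (ENSG00000174886, chr19:5891287-5904017), a membrane arm subunit, was at 211 and 211 TPM in GATA2-/- hESCs, 232 and 258 in WT HEs and 212 and 212 in GATA2-/- HEs. NDUFA11 levels in HPCs were 185 and 228 TPM (WT) and 144 and 153 TPM (GATA2-/-). GATA2-/- HPCs had its 2 lowest levels, and the change over genotypes was -0.38 ± 0.10 (SE) on the log2 scale (limma, adjusted p = 0.0278). The remaining calls held under 6 (COX7C and UQCRB) to 15 (NDUFV3) of the 17 alternatives, and those that fell, other than NDUFA9, were lost under both scalings.

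The third comparison asks whether loss of GATA2 is accompanied by another level of the members at the same stage. No member was called in HEs (limma, 0 at an unadjusted p under 0.05), in HPCs (9 unadjusted, all lower in GATA2-/- cells), or averaged over stages (9 unadjusted, all lower). An unadjusted p under 0.05 (limma) was reached by 1045 of the 21543 genes tested in HEs, with 619 lower. It was reached by 1925 in HPCs, with 693 lower, and by 1731 averaged, with 771 lower. Few genes were called at all, with 0.0139% of genes lower and 0.00464% higher in HEs, 0.0325% and 0.0279% in HPCs, and 0.0139% and 0.00928% averaged. Of the abundant genes 0.0284% were lower in HEs, 0.0284% in HPCs and 0.0568% averaged, and 0% were higher. The difference of the genotype effects between HPCs and HEs called 0% of genes in either direction. An unadjusted p under 0.05 there (limma) was reached by 2 members, NDUFS8 and COX4I1, and by 1281 of the 21543 genes tested. In HPCs the median log2 fold change was -0.23 over the members and 0.05 over all genes tested, and in HEs it was -0.10 and -0.01. Leaving out the second WT HPC library gave a member median of -0.13 in HPCs, and leaving out the first GATA2-/- HE library turned that in HEs to 0.02.

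Both GATA2-/- HPC libraries were below both WT HPC libraries for 29 of the 59 members and above both for 1. Of all genes tested, 13% were lower in this way and 19.7% higher, and of the 3520 abundant genes 22.3% and 16.3%. By complex, the 29 were 16 of 36 in complex I, 0 of 4 in complex II, 4 of 9 in complex III, 7 of 8 in complex IV and 2 of 2 in complex V. In HEs 10 members were lower in both GATA2-/- libraries and 1 higher, against 16.5% and 13.8% of all genes. The mitochondrial genome genes took 11.2% to 11.6% of TPM in GATA2-/- HPCs and 4.83% to 8.11% elsewhere, which lowers every other gene on a scale of shares. After TPM was rescaled without them and without hemoglobin genes, the median over members in HPCs was -0.13 and that over all genes 0.14. Summed erythroid markers overlapped between the genotypes, at 5729 and 15185 TPM in WT HPCs and 8719.7 and 17060.0 TPM in GATA2-/- HPCs, while both GATA2-/- HPC libraries were lower in summed megakaryocyte markers, at 374 and 417 TPM against 482 and 570.5 TPM in WT HPCs, and in summed blood markers, at 1666 and 1952 TPM against 2119 and 1983 TPM. Single markers went both ways. By log2 fold change, 2 of the 6 megakaryocyte markers were higher in GATA2-/- HPCs and 4 lower. For the 10 blood markers these counts were 4 and 6, and for the 12 erythroid markers 11 and 1. Their part in the members' levels was not tested.

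The smallest unadjusted p-values in HPCs belonged to NDUFS8, COX4I1 and NDUFA11. NDUFS8, a core subunit that carries iron-sulfur clusters (ENSG00000110717, chr11:67798084-67804111), was at 129 and 141 TPM in GATA2-/- hESCs, 95.5 and 106 in WT HEs and 92.0 and 92.9 in GATA2-/- HEs. NDUFS8 levels in HPCs were 124 and 142 TPM (WT) and 85.8 and 88.8 TPM (GATA2-/-). Both WT HPC libraries were above both GATA2-/- HPC libraries and above all 4 HE libraries, and the genotype difference in HPCs was -0.60 ± 0.14 (SE) (limma, unadjusted p = 0.00233, adjusted p = 0.260). COX4I1, the largest nuclear subunit of complex IV (ENSG00000131143, chr16:85832239-85840674), was at 526 and 469 TPM in GATA2-/- hESCs, 459 and 511 in WT HEs and 428 and 552 in GATA2-/- HEs. COX4I1 levels in HPCs were 473 and 561 TPM (WT) and 339.5 and 367 TPM (GATA2-/-). GATA2-/- HPCs had the 2 lowest levels of the 10 libraries, with a genotype difference of -0.55 ± 0.16 (SE) (limma, adjusted p = 0.349) in HPCs and 0.00 ± 0.16 (SE) (limma, adjusted p = 1.00) in HEs. For NDUFA11, whose levels are given above, the difference in HPCs was -0.46 ± 0.14 (SE) (limma, adjusted p = 0.361), and averaged over stages COX6A1 differed by -0.37 ± 0.13 (SE) (limma, adjusted p = 0.511).

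In the other direction, NDUFB6, a membrane arm subunit, was at 79.2 and 68.7 TPM in GATA2-/- hESCs, 56.9 and 66.0 in WT HEs and 53.6 and 70.3 in GATA2-/- HEs. NDUFB6 levels in HPCs were 50.9 and 60.3 TPM (WT) and 66.7 and 64.9 TPM (GATA2-/-). It was the 1 member higher in both GATA2-/- HPC libraries, with 0.24 ± 0.19 (SE) (limma, adjusted p = 0.722). NDUFA5, a subunit of the peripheral arm, was at 62.4 and 50.6 TPM in GATA2-/- hESCs, 55.5 and 42.6 in WT HEs, 43.5 and 49.7 in GATA2-/- HEs, 42.9 and 44.9 in WT HPCs and 57.7 and 39.7 in GATA2-/- HPCs, and NDUFS4, an accessory subunit of the same arm, was at 79.1 and 82.8 TPM in GATA2-/- hESCs, 86.4 and 116 in WT HEs and 96.7 and 119.7 in GATA2-/- HEs. NDUFS4 levels in HPCs were 84.3 and 109.6 TPM (WT) and 90.0 and 106 TPM (GATA2-/-). In HEs the smallest p-values belonged to NDUFC1, COX6C and UQCRH among members with a higher mean in GATA2-/- cells and to NDUFS6, UQCRQ and NDUFA11 among those with a lower mean, with log2 differences from -0.29 (UQCRQ) to 0.27 (NDUFC1). NDUFC1 was at 114 and 96.8 TPM in GATA2-/- hESCs, 66.2 and 79.3 in WT HEs, 66.4 and 116 in GATA2-/- HEs, 90.0 and 88.5 in WT HPCs and 88.8 and 71.7 in GATA2-/- HPCs, COX6C was at 278 and 266 TPM in GATA2-/- hESCs, 228 and 243 in WT HEs, 230.5 and 294 in GATA2-/- HEs, 198 and 253 in WT HPCs and 190.0 and 172 in GATA2-/- HPCs, and UQCRQ was at 162 and 156 TPM in GATA2-/- hESCs, 117 and 89.2 in WT HEs and 76.2 and 91.0 in GATA2-/- HEs. UQCRQ levels in HPCs were 103 and 106 TPM (WT) and 87.6 and 69.7 TPM (GATA2-/-). The WT and GATA2-/- HE levels of NDUFC1 and COX6C overlapped.

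**Figure D2:**
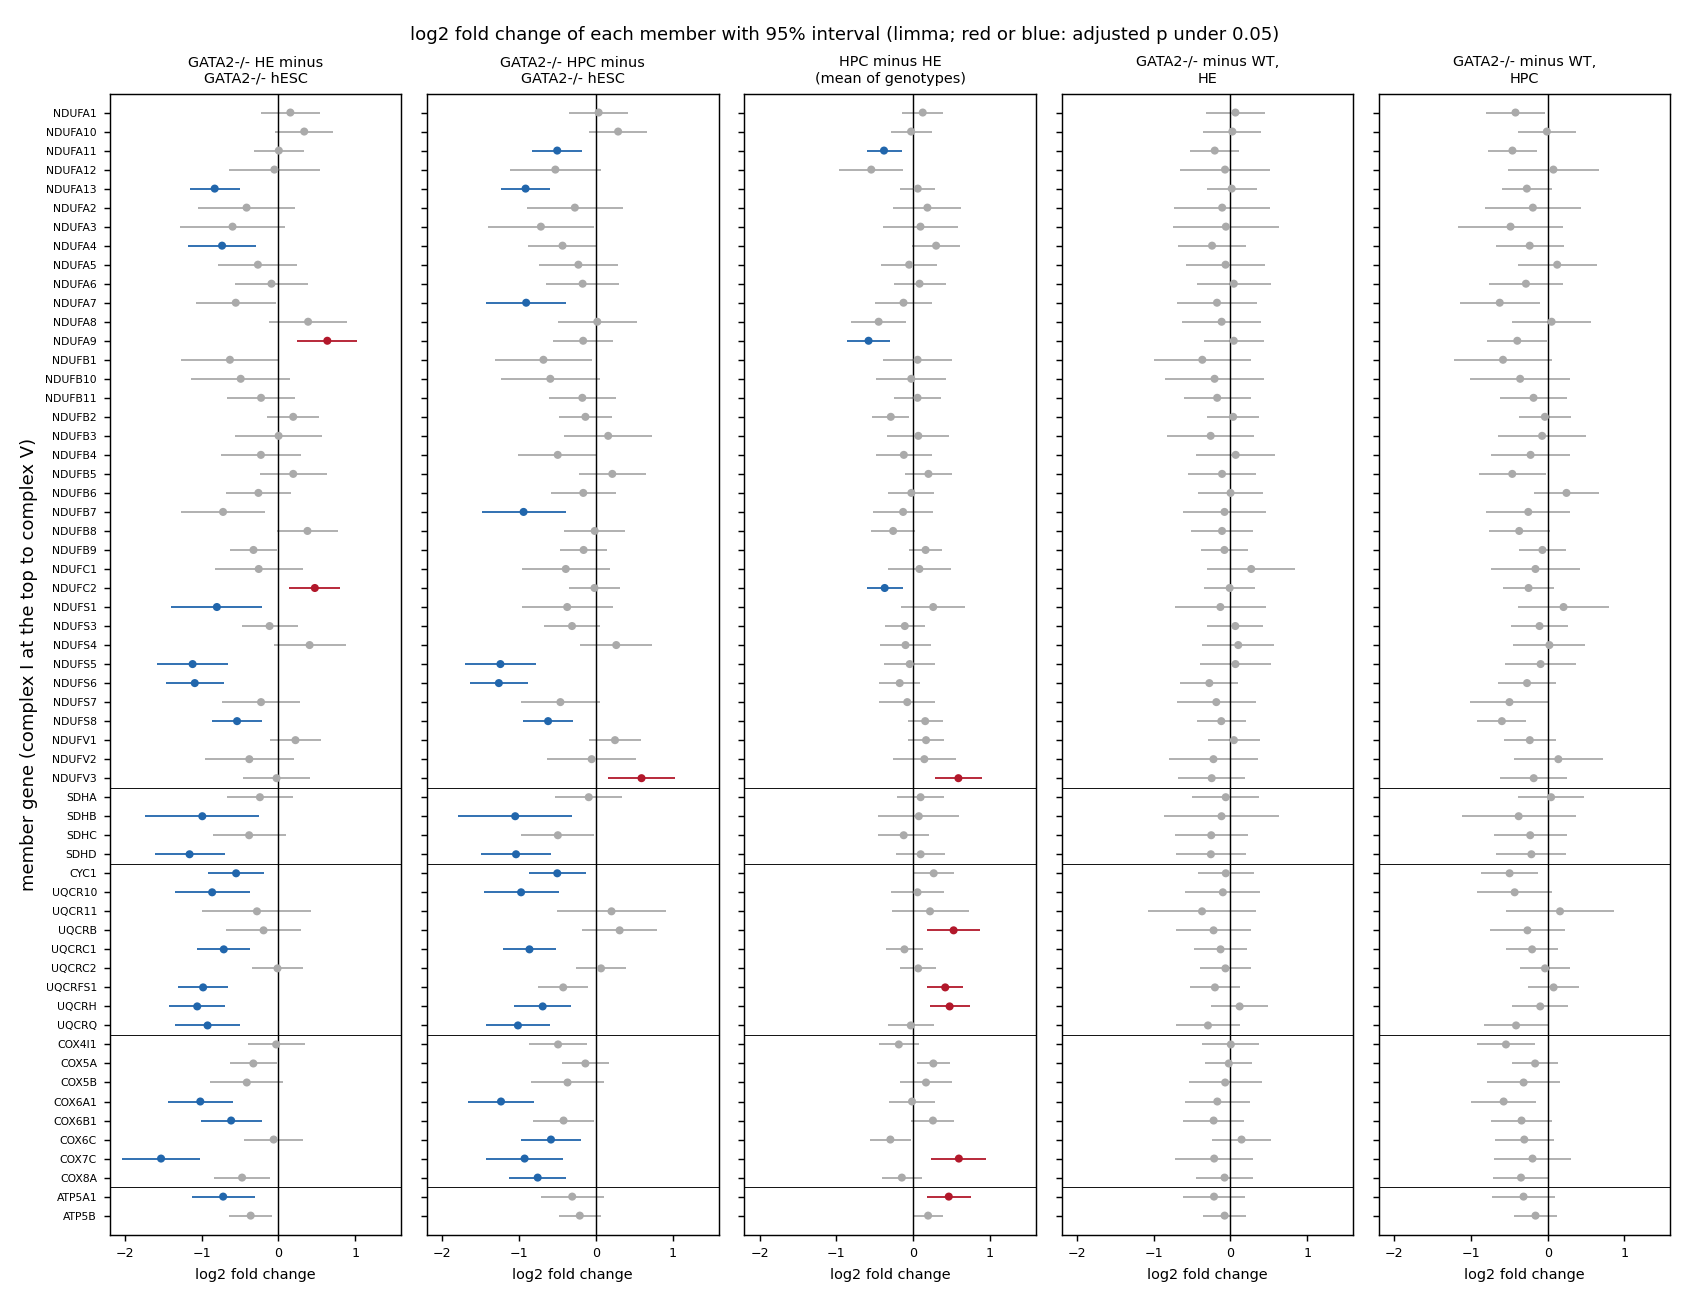
log2 fold change on the log2(TPM + 1) scale (horizontal axis) of each member (rows, complex I at the top to complex V at the bottom) with its 95% interval in 5 comparisons. Blue and red mark members that fell or rose at an adjusted p under 0.05, gray those that did not pass, and the 2 genotype panels on the right hold only gray points.

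Between the libraries of a group, many members moved together. The level was higher in the second library for 41 of 59 members in WT HEs, 49 in GATA2-/- HEs, 43 in WT HPCs, 24 in GATA2-/- HPCs and 26 in hESCs, whereas 30.9% to 45.1% of all genes tested were higher in the second library. Over the 10 libraries, the correlation of each member with the mean of all 59 (as z scores, in which each member is itself counted) ran from -0.57 for NDUFA10 to 0.96 for UQCR10, and was below 0 for 8 members, all but UQCRC2 of complex I. Outside the members and the pathway lists, the 5 genes of 9221 with a mean of at least 10 TPM whose pattern was most like that mean were RPS27A (Pearson r 0.98), MRPS24 (0.94), MRPS16 (0.93), BANF1 (0.92) and POLR2L (0.92), over 10 libraries that share their scaling.

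The mitochondrial genome adds 13 subunits, and each of them rose from GATA2-/- HEs to GATA2-/- HPCs (limma, adjusted p under 0.05) with a median log2 fold change of 1.26, while the median over the nuclear members was -0.08 (0.09 without the second GATA2-/- HE library). From WT HEs to WT HPCs 13 of 13 were also higher in every library, with a median of 0.45, and 3 of them were called (limma). Beside this, 5.5% of all genes tested were called higher from GATA2-/- HEs to GATA2-/- HPCs. From WT HEs to WT HPCs 20.2% of all genes were higher in every library and 3.32% were called higher. The ratio of the summed TPM of the 13 mitochondrial genes to that of the 59 members does not depend on how a library is scaled. This ratio was 5.65 and 5.21 in GATA2-/- hESCs, 5.24 and 4.39 in WT HEs, 5.43 and 4.51 in GATA2-/- HEs, 5.74 and 5.60 in WT HPCs and 10.9 and 11.2 in GATA2-/- HPCs. Both GATA2-/- HPC libraries were at least 10.9, and the other 8 lay between 4.39 and 5.74. The same separation was seen for complex I, at 9.85 and 9.87 against 3.18 to 5.05, for complex III, at 3.49 and 3.56 against 1.38 to 1.65, for complex IV, at 17.57 and 17.58 against 7.35 to 9.70, and for complex V, at 13.3 and 14.4 against 6.4 to 9.39. Between GATA2-/- and WT HPCs, 13 of 13 mitochondrial genes had an unadjusted p under 0.05 and 0 an adjusted one (limma, median log2 difference 0.72), so no single mitochondrial gene passed the test of that difference. Such an unadjusted p was reached by 1925 of the 21543 genes tested, of which 1232 were higher in GATA2-/- HPCs. The 13 genes lie on 1 genome and moved together in the same libraries, with log2 differences of 0.52 to 0.97 between these groups. Counts of 13 of 13 are therefore not 13 independent observations, here or from HE to HPC. The cause of the higher ratio was not tested.

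Other nuclear genes of the chain that the member list leaves out were also counted. Most encode subunits, but CYCS and ATPIF1, which do not, were in the list too. Of 21, 8 fell and 0 rose from hESCs to GATA2-/- HEs and 6 fell and 2 rose to GATA2-/- HPCs, beside 16.1% and 16.4% of all genes that fell, and their medians were -0.27 and -0.40. CYCS, cytochrome c itself, was at 292 and 259.6 TPM in GATA2-/- hESCs, 142 and 92.4 in WT HEs, 128 and 93.5 in GATA2-/- HEs, 132 and 163 in WT HPCs and 142 and 158 in GATA2-/- HPCs, with -1.33 ± 0.23 (SE; limma, adjusted p = 0.00302) to GATA2-/- HEs. In contrast, ATP5G2 and C14orf2 rose to GATA2-/- HPCs, and ATP5G1, which like ATP5G2 encodes the ring subunit of ATP synthase, was the 1 that rose from HE to HPC, by 0.53 ± 0.15 (SE; limma, adjusted p = 0.0369). These rises were 9.52% and 4.76% of the list, beside 14.2% and 8.52% of all genes tested. No gene of this list, or of the pathway lists described next, was called between genotypes (limma).

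A list of 8 genes held tissue isoforms, which replace common subunits in some tissues, and besides them COX7A2L. Of the 8, 4 passed the low-value filter and NDUFA4L2 changed most. NDUFA4L2, a paralog of NDUFA4 known to be induced in low oxygen, was at 0.410 and 1.18 TPM in GATA2-/- hESCs, 87.9 and 187 in WT HEs and 226 and 249 in GATA2-/- HEs. NDUFA4L2 levels in HPCs were 28.9 and 5.10 TPM (WT) and 28.6 and 3.66 TPM (GATA2-/-). The 4 HE libraries were the highest, the 4 HPC libraries came next with a wide gap between replicates, and hESCs were near 0. The change from HE to HPC was -3.80 ± 0.64 (SE; limma, adjusted p = 0.00325), opposite in sign to that of NDUFA4 (0.30 ± 0.14 (SE), limma, adjusted p = 0.175). Summed endothelial markers moved with it, at 3861 to 4698 TPM in HEs and 993 to 1295 TPM in HPCs, and their part in this result was not tested. COX7A2L, a factor of supercomplex assembly, changed by -0.34 ± 0.10 (SE; limma, adjusted p = 0.0424). COX4I2 reached 2.68 TPM at most and COX7A1 3.86 TPM.

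Assembly factors build the complexes without staying in them. Of 41 tested, 10 fell and 2 rose from hESCs to GATA2-/- HEs, 10 fell and 3 rose to GATA2-/- HPCs, and 4 rose and 0 fell from HE to HPC averaged over genotypes. The 24.4% that fell in each of the first 2 comparisons stood beside 16.1% and 16.4% of all genes and 20.5% and 23.1% of the abundant ones. These falls were thus above the share of all genes and only a little above that of the abundant ones. The 9.76% that rose from HE to HPC stood beside 8.52% and 12.6%, which is near the background. COX17 and SCO1, which deliver copper to complex IV, were among the 4 that rose from HE to HPC. COX17 was at 74.5 and 67.4 TPM in GATA2-/- hESCs, 18.2 and 11.97 in WT HEs and 27.7 and 29.2 in GATA2-/- HEs. COX17 levels in HPCs were 37.7 and 49.2 TPM (WT) and 35.9 and 31.9 TPM (GATA2-/-). Its HPC levels were above its HE levels, and the hESC levels were the highest, with 0.86 ± 0.16 (SE; limma, adjusted p = 0.00587) from HE to HPC. SCO1 was at 62.9 and 49.5 TPM in GATA2-/- hESCs, 17.2 and 15.6 in WT HEs, 15.2 and 15.4 in GATA2-/- HEs, 25.9 and 24.8 in WT HPCs and 30.1 and 27.2 in GATA2-/- HPCs, in the same order without overlap, with 0.73 ± 0.14 (SE; limma, adjusted p = 0.00526). COX20, which helps to mature MT-CO2, was at 49.1 and 47.7 TPM in GATA2-/- hESCs, 30.6 and 32.2 in WT HEs, 32.1 and 29.1 in GATA2-/- HEs, 57.6 and 38.2 in WT HPCs and 58.6 and 47.6 in GATA2-/- HPCs, with 0.67 ± 0.15 (SE; limma, adjusted p = 0.0149).

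Of 16 regulators of mitochondrial biogenesis, 6 fell and 1 rose from hESCs to GATA2-/- HEs, 3 fell and 2 rose to GATA2-/- HPCs, and 5 rose and 1 fell from HE to HPC. As shares these were 37.5% lower in HEs, beside 16.1% of all genes, 18.8% lower in HPCs, beside 16.4%, and 31.2% higher from HE to HPC, beside 8.52%. MYC was at 53.5 and 38.7 TPM in GATA2-/- hESCs, 71.0 and 38.3 in WT HEs, 48.6 and 25.7 in GATA2-/- HEs, 83.7 and 84.3 in WT HPCs and 106 and 96.4 in GATA2-/- HPCs, with 1.08 ± 0.25 (SE; limma, adjusted p = 0.0141) from HE to HPC. PPRC1, a coactivator of the PGC-1 family, was at 75.7 and 65.0 TPM in GATA2-/- hESCs, 50.05 and 24.0 in WT HEs, 38.7 and 23.5 in GATA2-/- HEs, 65.9 and 58.9 in WT HPCs and 55.6 and 65.7 in GATA2-/- HPCs, and ESRRA, a nuclear receptor that acts on respiratory chain genes, was at 23.6 and 34.2 TPM in GATA2-/- hESCs, 35.0 and 28.4 in WT HEs and 32.0 and 24.0 in GATA2-/- HEs. ESRRA levels in HPCs were 72.6 and 51.9 TPM (WT) and 43.1 and 44.8 TPM (GATA2-/-). Both had all 4 HPC libraries above all 4 HE libraries. PPARGC1A, the best known coactivator of this family, fell, with levels of 1.84 to 4.29 TPM in HEs and 0.0600 to 0.860 TPM in HPCs. Of 13 genes of the TCA cycle, which feeds the chain, 2 fell to GATA2-/- HEs and 1 to GATA2-/- HPCs, and IDH3A rose from HE to HPC by 0.52 ± 0.16 (SE; limma, adjusted p = 0.0461). These shares, 15.4% and 7.69% lower and 7.69% higher, were below the 16.1%, 16.4% and 8.52% of all genes.

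Promoters of the members were searched for the letters of 4 factors known to act on respiratory chain genes. RefSeq sequences of build GRCh38.p14, from 250 bases before to 50 after the gene start, matched 49 of the 59 members, and both strands were read. YY1 letters (AANATGGCG) stood in 16 promoters, 32.7% of those matched, against 3.85% of the 27305 genes with a promoter and 5.59% of the 15843 protein-coding ones. NRF1 letters (GCGCATGCG) stood in 7, or 14.3%, against 2.34% and 3.11%, and GABP letters (ACCGGAAG) in 4, or 8.16%, against 2.62% and 3.57%. SP1 letters (GGGGCGGGG) stood in 9, or 18.4%, against 18.5% and 26.2%. A match is only a description of letters. The YY1 letters hold ATG followed by GCG, which can also be a start codon and its next codon, and 15 of the 16 matches began between 20 bases before and 49 bases after the gene start. The following 30-base windows, on the strand of the gene and with the YY1 letters or their reverse complement in capitals, are from the 8 members with these letters that fell from hESCs to GATA2-/- HEs and from NDUFA9, which rose.
COX6A1, chr12:120438114-120438143, plus strand: gtccagatcaAAAATGGCGgtagttggtgt
NDUFS1, chr2:206159410-206159439, minus strand: tagccgaggcCGCCATATTgaataagcgac
NDUFS6, chr5:1801405-1801434, plus strand: ccagcggcgcAAAATGGCGgcggcgatgac
NDUFS8, chr11:68030491-68030520, plus strand: tccccaaaccAACATGGCGgccccctacaa
SDHB, chr1:17054003-17054032, minus strand: gtcaggagccAAGATGGCGgcggtggtcgc
UQCR10, chr22:29767386-29767415, plus strand: actgtgaagaAACATGGCGgccgcgacgtt
UQCRC1, chr3:48609604-48609633, minus strand: ctgcagctggAAGATGGCGgcgtccgtggt
UQCRFS1, chr19:29213103-29213132, minus strand: gagcggctgtCGCCATGTTgtcggtagcat
NDUFA9, chr12:4649114-4649143, plus strand: attgtgggaaAAGATGGCGgctgccgcaca
Of the 16 members with YY1 letters 8 fell and 1 rose in that comparison, and of the 33 matched members without them 7 fell and 0 rose, with medians of -0.55 and -0.27, and no test was made of this split. From hESCs to GATA2-/- HPCs 7 of 16 and 8 of 33 fell, with medians of -0.44 and -0.37. YY1 itself was at 65.6 to 97.0 TPM in the 10 libraries and was not called in any comparison.

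NRF1 letters, which read nearly the same on both strands and can match both at once, stood further upstream in most of the 7 promoters (COX6A1, NDUFA5, NDUFA8, NDUFB4, NDUFS6, NDUFS7 and SDHD). COX6A1, NDUFS6 and SDHD, which fell in both comparisons with hESCs, are shown with these letters in capitals.
COX6A1, chr12:120437884-120437913, plus strand: ggagggcacaCGCATGCGCacgaaggaaac
NDUFS6, chr5:1801351-1801380, plus strand: cagaagccgtGCGCATGCGttagcgctaag
SDHD, chr11:112086753-112086782, plus strand: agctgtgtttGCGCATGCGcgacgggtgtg
In COX6A1 and NDUFS6 they stood besides the YY1 letters shown above, 219 and 46 bases before the gene start. NRF1 itself was at 8.73 to 16.5 TPM.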

How the data were processed

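RNA-Seq values were analysed in 10 libraries, as described above. Per the paper's methods, RNA was sequenced as short single-end reads on a MiSeq, trimmed with Trimmomatic and aligned with Bowtie to hg19, and the authors deposited TPM values (transcripts per 1e+06 transcripts, corrected for length) for each library. The submitters' processing notes name Bowtie, RSEM, hg19 and mm10, and how reads of the mouse stroma were handled is not given in the sources used here. TPM totals were 998299 to 999106 in each library. TPM keeps no read depth, so no counting interval could be given, and as shares a rise of some genes lowers all others.

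Values were tested as log2(TPM + 1) with limma 3.58.1 in R 4.3.3, in 1 fit over all 10 libraries with a mean-variance trend, for 21543 genes (a minimum of 1 TPM, reached by 2 libraries or more). The test is two-sided, with Benjamini-Hochberg adjustment over all genes tested and a threshold of 0.05. Fold changes are on the log2(TPM + 1) scale, which understates those of low genes. On simulated data for GATA2-/- against WT HEs (21543 genes), 33 of 100 genes changed by 1 on the log2 scale and 85 of 100 changed by 2 were called, with 3 false calls.

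Members were given by symbol, and readthrough rows were set aside. Members and gene lists were chosen with earlier results of these data known. Named with a value in each library were, in each complex, the members with the highest and the lowest mean, in each stage comparison at most 5 called members per direction, ordered by size of change, and in each genotype comparison up to 3 members in each direction with the smallest unadjusted p. Of the other lists, up to 3 called genes in each direction were named from the averaged HPC against HE comparison. CYCS, COX4I2, COX7A1, YY1 and NRF1 were named besides, with their values known. Gene coordinates are from GENCODE on GRCh37, promoters from RefSeq on GRCh38.p14. Alternatives were another pseudocount (0.1), no filter, only the libraries of the comparison, quantile normalization, TPM rescaled without mitochondrial genome and hemoglobin genes (47 rows), no trend, a replicate block and leaving out each library. The share of abundant genes called and the sum with readthrough rows were added after the data were seen. Over all genes tested, the replicate numbers of the labels did not pair the libraries. Among the members, same-numbered libraries had deviations correlated over 0.1 in 9 of 10 pairs of groups, and the main fit held no replicate block. Column names of the second HE and HPC libraries share a suffix that no source explains. Those of the hESC libraries carry differing labels that may be passages, and neither item entered the fit.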

Additional observations from a re-analysis of the deposited data

Results flagged for a closer look

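Of the 4 readthrough rows left out of the comparisons, 2 were above the level of the WT libraries of the same stage. The readthrough row of NDUFA7 was at 2.24 and 14.16 TPM in GATA2-/- HPCs and at 0 in both WT HPC libraries, and 1 GATA2-/- HE library had 1.13 TPM. The readthrough row of SDHD was at 1.03 and 1.84 TPM in GATA2-/- HEs and at 0 in both WT HE libraries, and 1 GATA2-/- HPC library had 0.53 TPM. The other 2 readthrough rows had reads in WT libraries too. That of UQCR11, the largest at 16.9% of both rows, was at 43.6 and 29.6 TPM in hESCs and at 5.23 to 27.7 TPM in the other 8 libraries. With both rows summed, a choice made after the data were seen, the log2 difference from hESCs to GATA2-/- HPCs was -0.15 for UQCR11 (0.20 for its own row). For NDUFA7 it was -0.68 (-0.91 for its own row), and that between GATA2-/- and WT HPCs was -0.40 (-0.63). Short reads do not separate a readthrough transcript well from the gene it contains, and these differences were not tested.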

How the results depend on the processing

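Counts are given as members higher and lower. From hESCs to GATA2-/- HEs (2 and 18), 1 was higher with only the libraries of the comparison, 1 after rescaling, and without the trend 0 and 11. From hESCs to GATA2-/- HPCs (1 and 18), 0 were higher without the filter, with only the libraries of the comparison and without the trend. Quantile normalization gave 2 and 11, with a median of -0.20, and rescaling a median of -0.28. Under both of these scalings CYC1, COX6C, NDUFA11 and SDHB were no longer called in this comparison. From WT HE to WT HPC, 1 was higher under quantile normalization and 1 after rescaling. From GATA2-/- HE to HPC (1 and 2), the counts were 3 and 1 under quantile normalization, 2 and 1 after rescaling, 0 and 0 with only the libraries of the comparison and 0 and 0 without the trend, and 1 was lower without the filter. There the median of -0.08 became 0.08 and 0.07 under the 2 scalings, and rescaling moved the median of all genes by 0.12. Averaged over genotypes (6 and 3), 3 were higher without the filter and 3 with only the libraries of the comparison. Quantile normalization gave 12 and 1 with a median of 0.18, 1 was lower after rescaling, and 1 was higher and 1 lower without the trend. The cause was not tested.

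After rescaling, the log2 ratio of summed TPM from hESCs to GATA2-/- HPCs was -0.30 (complex I), -0.53 (II), -0.33 (III), -0.60 (IV), -0.15 (V) and -0.36 (all members), and from hESCs to GATA2-/- HEs -0.58 (V). From GATA2-/- HE to HPC it was 0.14 (II, -0.01 as deposited) and 0.44 (V), and between genotypes in HPCs -0.13 (I), -0.10 (II), -0.08 (III), -0.22 (IV) and -0.14 (V). On the gene strand alone, GABP letters stood in 2 promoters and SP1 letters in 1.

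Over all genes tested, same-numbered libraries had correlated deviations over 0.1 in 1 of 10 pairs of groups (-0.014 to 0.123), and the main fit did not take the numbers as pairs. Over the members it was 9 of 10 (-0.0035 to 0.32), so the main fit leaves out a deviation that same-numbered libraries share among the members. With the replicate block the counts were 2 and 23 for GATA2-/- HEs against hESCs, 1 and 22 for GATA2-/- HPCs against hESCs, 6 and 3 averaged, 1 higher from WT HE to WT HPC and 2 higher from GATA2-/- HE to HPC.

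Leaving out 1 library gave 0 to 2 higher and 11 to 17 lower from hESCs to GATA2-/- HEs, with 11 lower without either hESC library. From hESCs to GATA2-/- HPCs it gave 0 to 1 higher and 10 to 18 lower, with 10 lower without either hESC library and 11 without either GATA2-/- HPC library, and medians of -0.44 to -0.35. From GATA2-/- HE to HPC it gave 0 to 1 higher and 0 to 2 lower, averaged 2 to 5 higher and 1 to 3 lower, and in WT cells medians of 0.0048 to 0.21. Calls that held in all 17 alternatives were 9 from hESCs to GATA2-/- HEs, 5 to GATA2-/- HPCs, 1 averaged (NDUFA9) and 0 from GATA2-/- HE to HPC, and SDHB was called in 3 and 6 of 17 against hESCs. Leaving out 1 library gave member medians of -0.49 to -0.17 from hESCs to GATA2-/- HEs, -0.13 to 0.09 from GATA2-/- HE to HPC, -0.04 to 0.11 averaged over genotypes, -0.18 to 0.02 between genotypes in HEs and -0.30 to -0.13 in HPCs. Among members named, ranges that crossed 0 were, between genotypes in HEs, -0.12 to 0.67 for NDUFC1 and -0.030 to 0.32 for COX6C, with the lowest value without the second GATA2-/- HE library. In HPCs they were -0.10 to 0.51 for NDUFS1 and -0.14 to 0.39 for NDUFA5, with the lowest without the first GATA2-/- HPC library. Averaged over stages they were -0.044 to 0.17 for NDUFS4 and -0.14 to 0.25 for NDUFC1, where NDUFS4 was also at -0.01 and -0.03 without the second GATA2-/- HE and the first WT HPC library, and NDUFC1 at -0.01 and -0.02 without the first WT HE and the first GATA2-/- HPC library.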
